A study of Arabidopsis thaliana with 3 samples.

Results

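The miR156-regulated SPL genes of Arabidopsis are 9 members of the SQUAMOSA PROMOTER BINDING PROTEIN-LIKE family, SPL2, SPL3, SPL4, SPL5, SPL6, SPL9, SPL10, SPL11 and SPL15, and 2 of them, SPL2 and SPL11, lay at a region bound by the MADS transcription factor complex SEP3-AG(IAP1). The members were taken by name, and a peak was counted for a gene when its midpoint fell between 3000 bp upstream of the gene start and 1000 bp downstream of the gene end. The binding data are a list of 3552 peaks on the 5 nuclear chromosomes, of which 2 met this rule, 1 at each of the bound members. With 2 of 9 genes (22.2%), the members were close to all protein-coding genes, of which 4945 of 27444 (18.0%) had a peak by the same rule. SPL3, SPL4, SPL5, SPL6, SPL9, SPL10 and SPL15 had no peak and were counted as unbound.

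The list comes from seq-DAP-seq, in which a pair of tagged proteins is made together in vitro and purified by one tag and then by the other, and the complex is incubated with sheared genomic DNA whose bound fragments are sequenced. Here SEPALLATA3 (SEP3) carried a FLAG tag, and its partner, tagged with Myc, was AGAMOUS (AG) with the I domain exchanged for that of APETALA1 (AP1). The I domain is a stretch that helps the proteins pair. The authors report that it is needed for binding DNA and that it alters which DNA is bound. The DNA came from Arabidopsis plants grown for 2 weeks in long days on a plate medium, and it was free of chromatin, so that the peaks show which DNA the complex can bind in vitro and not where it binds in a plant. The 3 replicates form a single group, which the labels call SEP3-AG(API-I), and their peaks were joined by the authors into a list of positions with no height, count or score. No spread between replicates and no test between groups can be had from it, its depth per library is not part of it, and the complex with unchanged AG was not analysed here.

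SPL proteins are transcription factors that promote the change from juvenile to adult growth and from leaf production to flowering. The microRNA miR156 pairs with their transcripts and holds them down in young plants, and its level falls as the plant ages, which releases the SPL proteins. They then activate the microRNA miR172, which acts against AP2-like repressors of flowering, and MADS-box genes such as SOC1, FUL and AP1. MADS proteins such as SEP3 and AG bind the CArG box, a CC and a GG with A and T between them.

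The pairing with miR156 is what defines the group, and it was looked for in the reference to check the label. A mismatch is a base of the target that differs from the full complement of miR156a, so a G:U pair also counts as one. The mature sequences of miR156a and miR156j and the forms of the target site in the members are shown here, each from its 5′ end. Capitals mark the seed of the miRNA (bases 2 to 8) or the mismatches of the target.
miR156a-5p: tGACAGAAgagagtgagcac
miR156j: tGACAGAAgagagagagcac
SPL2, SPL6, SPL9, SPL10, SPL11 and SPL15: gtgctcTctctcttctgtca
SPL3: TtgctTactctcttctgtca
SPL4: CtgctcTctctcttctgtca
SPL5: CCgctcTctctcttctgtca

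All 9 members carried a site with at most 3 mismatches to miR156a. Of 27444 protein-coding genes, 12 had a site of up to 3 mismatches, 9 of them the members and 2 of them other SPL genes. A site of up to 4 mismatches was found in 40 (0.146%). Positions are counted from 1 at the 5′ end of the target, and the first letter is the base in the full complement of miR156a. SPL2, SPL6, SPL9, SPL10, SPL11 and SPL15 shared the same site with 1 mismatch (A7T), in a coding exon in all 6. The site of SPL2 lay at chr5:17360758-17360777 (TAIR10), in the last of its 5 exons, and that of SPL11 at chr1:9503618-9503637, in the last of its 4 exons. In SPL3, SPL4 and SPL5, which encode short proteins, the site lay in the 3′ UTR and had more mismatches. These were G1T and C6T in SPL3, G1C and A7T in SPL4, and G1C, T2C and A7T in SPL5. The mature sequence was the same in 6 of the 10 annotated miR156 entries, a to f. The entries miR156i and miR156j are annotated on the strand opposite SPL4 and SPL9, exactly over their target sites at chr1:19807090-19807109 and chr2:17589066-17589085. They therefore follow the letters of SPL4 and SPL9, as miR156j shows when it is read against the site of SPL9.

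SPL13A and SPL13B, which are not among the 9 members, carried the same coding site with 1 mismatch, while SPL1, SPL7, SPL8, SPL12 and SPL14 had at best 6 to 8 mismatches. Neither SPL13A nor SPL13B had a peak, so that 2 of the 11 SPL genes with a miR156 site were bound, beside 18.0% of all protein-coding genes. The proteins of SPL13A and SPL13B were identical over 359 residues, and whether reads from these copies can be mapped to a single place was not tested.

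The best 2 matches to the binding motif in each SPL peak are shown as 30 bases of the plus strand of TAIR10, with the core of 10 bp in capitals, so that the CArG boxes described for the peaks can be read. A peak covers 400 bp and does not show which of its sites was bound.
SPL2 site 1, chr5:17363524-17363553: ggatgtctcaCCATTTATGGtaatattatc
SPL2 site 2, chr5:17363688-17363717: agtaaagcttCCATTTTTGGcttagcataa
SPL11 site 1, chr1:9498879-9498908: cagcatattaCTAAAATCAGaatctctctt
SPL11 site 2, chr1:9498914-9498943: aacaaagcatCCAATTTGGGtaccaattca

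SPL2 and its paralogs SPL10 and SPL11 act on lateral organs of the shoot. SPL2 (AT5G43270, chr5:17360287-17363880, minus strand) had its peak inside the gene, at chr5:17363324-17363723. The peak centre lay 356 bp downstream of the annotated gene start, in the 5′ UTR of 2 of the 3 annotated transcripts and in an intron of the other. The peak was in the window of no other protein-coding gene, which was the case for 38.6% of all peaks. Its GC content was 31.5%, close to the mean of all peaks (32.5% ± 5.10, SD, n = 3552 peaks).

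Both sites of the SPL2 peak are canonical CArG boxes, in which 6 bases, all A or T, stand between CC and GG. A canonical box was found in 15.96% of all peaks, and only 25 of the 3552 peaks (0.704%) held 2 or more. Sites were also scored with a matrix of 16 bp fitted to the peaks of the other chromosomes, in bits, the log2 ratio of the matrix to the base composition of the peaks. Site 1 scored 12.40 bits and lay 15 bp from the peak centre. Site 2 scored 9.73 bits and lay 179 bp from the centre, near the edge of the peak. It was in the 5′ UTR of 1 annotated transcript of SPL2 and outside the other 2. The gap between the cores, from the end of one to the start of the other, was 154 bp, and their centres were 164 bp apart. The best score put the SPL2 peak at percentile 71.0 of all peaks, and 1030 peaks scored as high or higher.

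SPL11 (AT1G27360, chr1:9500892-9504023, plus strand) had its peak upstream, at chr1:9498718-9499117, with the centre 1974 bp before the gene start. This peak is shared with other genes. Its centre lay in an intron of the neighbour AT1G27350, annotated as a ribosome-associated membrane protein and read in the other direction, 721 bp from the start of that gene. It also lay 833 bp past the end of LCR (AT1G27340), which encodes an F-box protein. The peak was therefore in the windows of 3 protein-coding genes, as 13.7% of all peaks were in 3 or more, and the list does not say which gene, if any, it serves.

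The SPL11 peak held no canonical box. Its best site, site 1, has 2 or more mismatches to the box, scored 8.94 bits and lay 24 bp from the centre. Site 2 has 1 mismatch to the canonical box and lay 11 bp from the centre on the other side, with a score of 7.42 bits, under the 7.81 bits that give 1 site per 2000 bp of the genome and that served as the threshold for a site. The best score put the SPL11 peak at percentile 27.9, and 2562 of the 3552 peaks scored as high or higher. With a matrix of the 10 bp core alone, without the flanks, it stood at percentile 75.2, and the SPL2 peak at 97.2. The gap between the cores of its best 2 sites was 25 bp, and their centres were 35 bp apart. A gap of 25 bp was found for the best 2 sites of 95 peaks (2.67%), against a mean of 26.7 peaks for each distance from 20 to 80 bp. The authors name a spacing of this length among those preferred by the complex. Theirs was sought between canonical boxes, in regions bound more by this complex than by that with unchanged AG. Here the best 2 matrix sites of every peak were used, canonical or not, so the counts are not a repeat of that result. Whether the authors count the distance between cores, as was done here, was not checked. The gap in the SPL11 peak was picked out here after its value was seen. In all peaks the best site lay a median of 17 bp from the centre, and 68.4% had it within 25 bp, as both SPL peaks did.

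**Figure D1:**
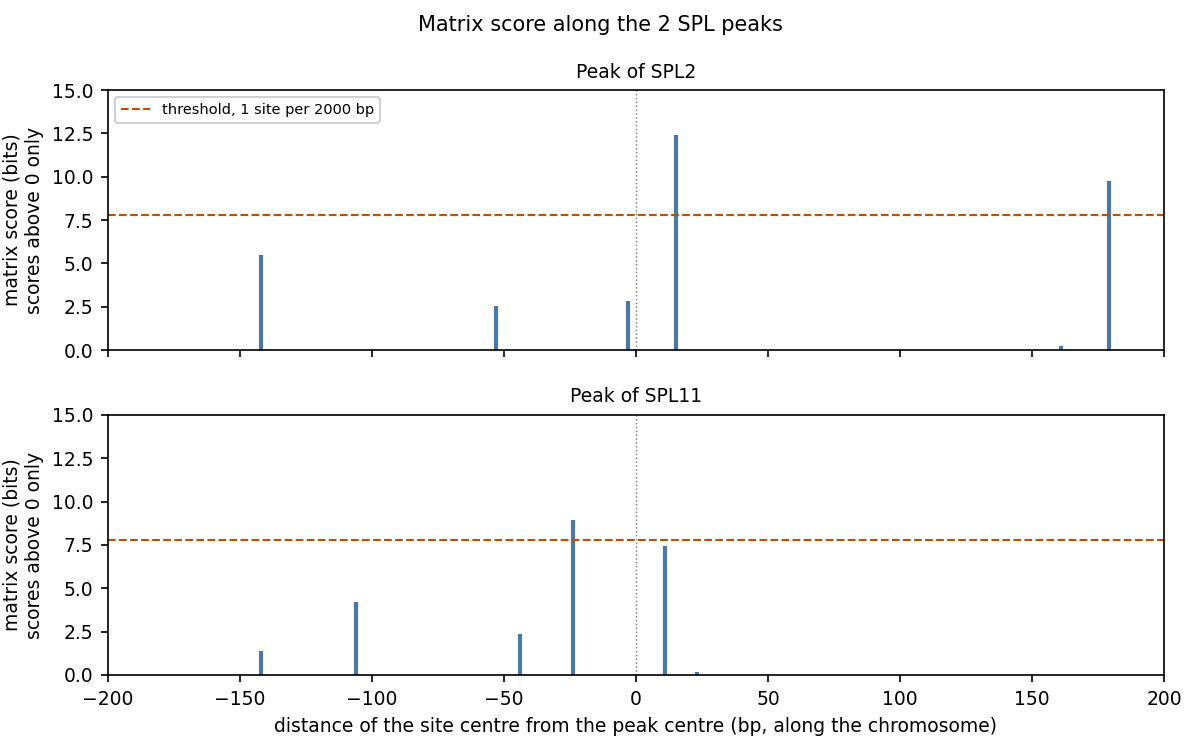
Matrix score in bits at each position of the peaks of SPL2 (top) and SPL11 (bottom), by distance of the site centre from the peak centre in bp along the chromosome. Only scores above 0 are drawn, and the dashed line is the threshold of 7.81 bits. The SPL2 peak has 2 sites above the line, at 15 and 179 bp, and the SPL11 peak has 1, at -24 bp, with another just under it at 11 bp.

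SPL10 (AT1G27370, chr1:9505112-9508542, minus strand) is the tandem neighbour of SPL11 and the member most like it. Their ends face each other over 1088 bp, and their proteins were identical at 75.5% of the length of the longer one, against 40.6% for SPL2 and SPL10 and 38.9% for SPL2 and SPL11. The peak of SPL11 lay 9624 bp from the start of SPL10, beyond its 3′ end and outside its window, and SPL10 had no peak of its own. The windows of SPL10 and SPL11 overlapped by 912 bp, and no peak lay in the overlap. Of these 3 paralogs, SPL2 and SPL11 thus had their peaks at different places, inside the gene and upstream, and SPL10 had none in the list.

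The window of SPL10 held 2 canonical boxes and that of SPL15 held 1. All were upstream of the gene and outside peaks, and they are shown for comparison with the boxes in the SPL2 peak.
SPL10 box 1, chr1:9510265-9510294: aattcctaacCCAATAAAGGaatagacaga
SPL10 box 2, chr1:9511434-9511463: tttacacagtCCTAAAATGGaggaaaaaca
SPL15 box, chr3:21448314-21448343: ccccaaaaaaCCTATAAAGGgtttctcttt

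The boxes of SPL10 lay 1738 and 2907 bp before the gene start and scored 7.03 and 5.43 bits, both under the threshold, although a site read 1 bp away from box 1 scored 8.69 bits. The canonical box of SPL15 lay 2294 bp before the gene start and scored 2.45 bits. These boxes differ from SPL2 site 1, which had 12.40 bits, in the bases beside the core and also in the order of A and T within it. How much of the score comes from each was not worked out. Over the 9 members, 5 canonical boxes were found, and the 2 in a peak were those of SPL2. In the whole genome, 595 of 7741 canonical boxes (7.69%) lay in a peak.

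SPL3, SPL4 and SPL5 promote flowering and encode the shortest proteins of the group, of 131, 174 and 181 residues, against 354 to 419 in the other members. None was bound. SPL3 (AT2G33810, chr2:14305001-14306072, plus strand) had its nearest peak 8750 bp past the gene end, and its best site, at 8.61 bits, was the weakest of the group and at percentile 15.3 among the windows of all protein-coding genes. SPL4 (AT1G53160, chr1:19806263-19807705, plus strand) and SPL5 (AT3G15270, chr3:5140365-5142323, minus strand) are a close pair, identical at 66.9% of the length of the longer protein. SPL4 had its nearest peak 16541 bp upstream, and SPL5 had it 5615 bp past the end. Their best sites were stronger than that of SPL3 and lay in different places. The site of SPL4 scored 11.58 bits and lay in the 3′ UTR, and that of SPL5 scored 11.12 bits and lay 1301 bp before the gene start.

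SPL9 and SPL15 set the rate at which leaves form and act in the change of phase and in flowering. The pair was identical at 55.2% of the length of the longer protein. SPL9 (AT2G42200, chr2:17587169-17589671, plus strand) was the member farthest from any peak, with 27648 bp to the nearest one, upstream. Its best site nevertheless scored 12.22 bits, near the 12.40 bits of the best site in the SPL2 peak, and lay 573 bp before the gene start. SPL15 (AT3G57920, chr3:21444243-21446035, minus strand) had its nearest peak 8665 bp upstream and a best site of 9.73 bits, level with the second site of SPL2, in a coding exon. SPL6 (AT1G69170, chr1:26005068-26007368, plus strand), known for a part in the response to pathogens, had its nearest peak 4882 bp past the gene end, the shortest distance among the 7 unbound members. Its best site, at 11.17 bits, lay in a coding exon.

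The strongest sites of the unbound members are given for comparison with those in the SPL peaks, again as 30 bases of the plus strand with the core in capitals.
SPL9, chr2:17586581-17586610, 12.22 bits: tatttaatttCCAATTAGAGaattatatcc
SPL4, chr1:19807488-19807517, 11.58 bits: taaacacctaCCATTATTAGtaaatcgttg
SPL6, chr1:26006032-26006061, 11.17 bits: cgaaagattaCCACAAAAGGcatagagttt
SPL5, chr3:5143609-5143638, 11.12 bits: agttgaattaCTAGTTTTAGtaaataatag

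None of these sites is a canonical box. The SPL6 site has 1 mismatch to it, the SPL4 site meets a looser form of the box, with C or T second and A or G ninth, that was found in 56.1% of all peaks, and the SPL9 and SPL5 sites have 2 or more mismatches. All of them begin with CC or CT and, apart from the SPL6 site, close with AG. The matrix that ranked the sites gives high scores to such ends, so they largely follow from how the sites were picked.

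The windows of the 9 members were 5072 to 7594 bp long and held 37 sites above the threshold, of which 3 lay in a peak and 34 did not. Of these sites, 20 lay upstream of a gene, 16 within it and 1 downstream. The median was 4 sites per member, against 3 over the windows of all protein-coding genes, and the median best score was 11.12 bits, against 10.31. The median window was also longer, 6301 bp against 6078 bp, and these comparisons were not adjusted for length. By window length, SPL2 and SPL11 stood at percentiles 83.99 and 76.95 of all protein-coding genes. All-gene windows with a peak had a median best score of 11.86 bits and those without one 10.05 bits. SPL2, SPL9, SPL4, SPL6 and SPL5 came first in the order of best sites, followed by SPL11, SPL15, SPL10 and SPL3, so that the bound members were the first and the sixth. The best site of the SPL11 window, with 10.57 bits at 2496 bp before the gene start, was not in the SPL11 peak.

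**Figure D2:**
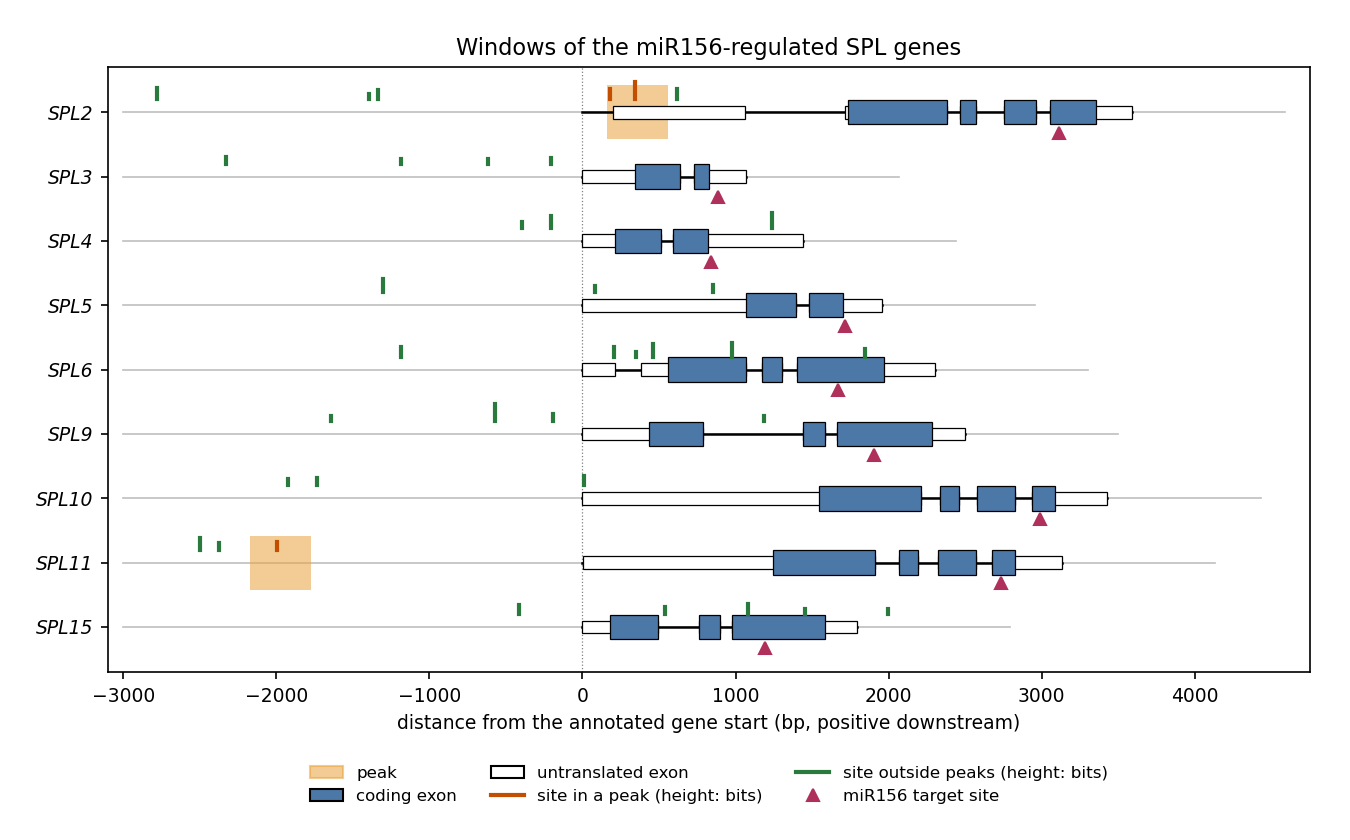
Windows of the 9 miR156-regulated SPL genes, drawn to scale from the annotated gene start (x axis, bp, positive downstream) with the exons of the transcript with the longest coding sequence. Orange bands are peaks, upright bars are matrix sites above 7.81 bits with a height that grows with the score, and triangles are miR156 target sites. Bands stand at SPL2, over the 5′ end of the gene, and at SPL11, 1974 bp upstream, and 34 of the 37 sites lie outside them.

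Most sites of these scores were outside peaks over the whole genome too. Of 2313 sites with 12 to 13 bits, the range of the best sites of SPL2 and SPL9, 18.5% lay in a peak. The share was 12.7% for 11 to 12 bits, where the best sites of SPL4, SPL5 and SPL6 fell, and 3.85% for the lowest range, up to 9 bits, which holds the site of the SPL11 peak. It reached 59.2% only at 15 bits and above, a score that no site of the members had. In the member windows, 5 sites had at least 11 bits, and 1 of them, that of SPL2, was in a peak.

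**Figure D3:**
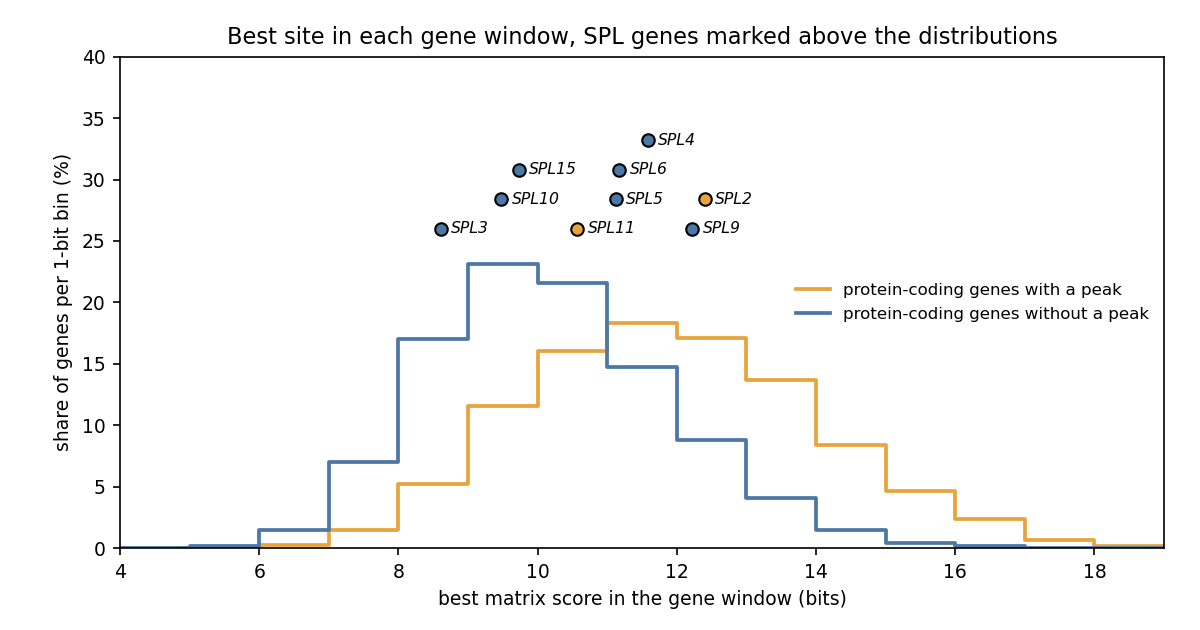
Best matrix score in the window of each protein-coding gene (x axis, bits) as the share of genes per bin of 1 bit (y axis, %), for genes with a peak (orange) and without (blue). Dots mark the best site of each SPL gene, orange for SPL2 and SPL11, which have a peak, and blue for the 7 members without, and their height has no meaning. SPL9 at 12.22 bits stands beside SPL2 at 12.40 bits.

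The other SPL genes gave no peak. SPL1, SPL7, SPL8, SPL12, SPL13A, SPL13B and SPL14 were matched in the annotation, and 0 of these 7 genes were bound, beside 18.0% of all protein-coding genes. SPL14 came nearest, with a peak centre 2061 bp past its end, and SPL8 was 67475 bp from its nearest peak. The difference between 2 of 9 and 0 of 7 was not tested.

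Peaks also lay at genes that make the miRNA, at 4 of the 12 MIR156 and MIR157 genes (33.3%), against 37 of 326 annotated miRNA genes (11.3%). The 4 genes were MIR156A, MIR156D and MIR156E, 3 of the 8 MIR156 genes, and MIR157B, 1 of the 4 MIR157 genes. With the window cut to 1000 bp upstream up to the end of the hairpin, 2 of the 12 had a peak, MIR156A and MIR156D. The share of all miRNA genes for that shorter window is not given here. The peaks of MIR156A and MIR156D lay 247 and 217 bp before the annotated hairpin and had best sites of 11.28 and 11.43 bits. That of MIR156E lay 1486 bp before it and scored 14.81 bits, at percentile 93.2, above every site of the SPL windows. That of MIR157B lay 1554 bp before it and scored 6.82 bits, under the threshold for a site. These windows are set on the hairpin, since the start of the primary transcript is not what the annotation gives, so they may not cover the same part of a gene as those of the SPL genes.

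Further along the pathway, 0 of 5 genes for miR172, the microRNA that SPL proteins activate, had a peak, beside 11.3% of all annotated miRNA genes. With so few genes, this count is a description only. Of 6 AP2-like genes, the targets of miR172, 5 had a peak (83.3%), beside 18.0% of all protein-coding genes. In the window from 1000 bp upstream to the gene end, 2 of these 6 had one, beside 9.91% of all protein-coding genes. SMZ, SNZ and TOE3, repressors of flowering of this family, had best sites of 16.49, 15.48 and 14.93 bits in their peaks. SMZ had another peak, 1101 bp before the gene start, with a best site of 11.79 bits. TOE1 had 2 peaks, and AP2 had 1, 1648 bp before the gene start, with a best site of only 5.02 bits. TOE2 had none. Of 8 genes that act with or after the SPL proteins in the change to flowering, 7 had a peak (87.5%), and 5 did in the shorter window. AGL24, SOC1 and FUL, which are themselves MADS-box genes, had best sites of 15.13, 14.08 and 12.38 bits. SOC1 had further peaks, with best sites of 10.26 and 8.38 bits. The best sites of FT, which encodes the mobile flowering signal, and of AGL42, a relative of SOC1, had 11.44 and 11.41 bits. AP1, which gave the I domain, and FD, the partner of FT, also had a peak, and LFY did not. The 2 of 9 SPL genes stood nearer to the 18.0% of all protein-coding genes than either of these lists did, and the lists were picked as known parts of the pathway, so that their shares are a description.

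**Figure D4:**
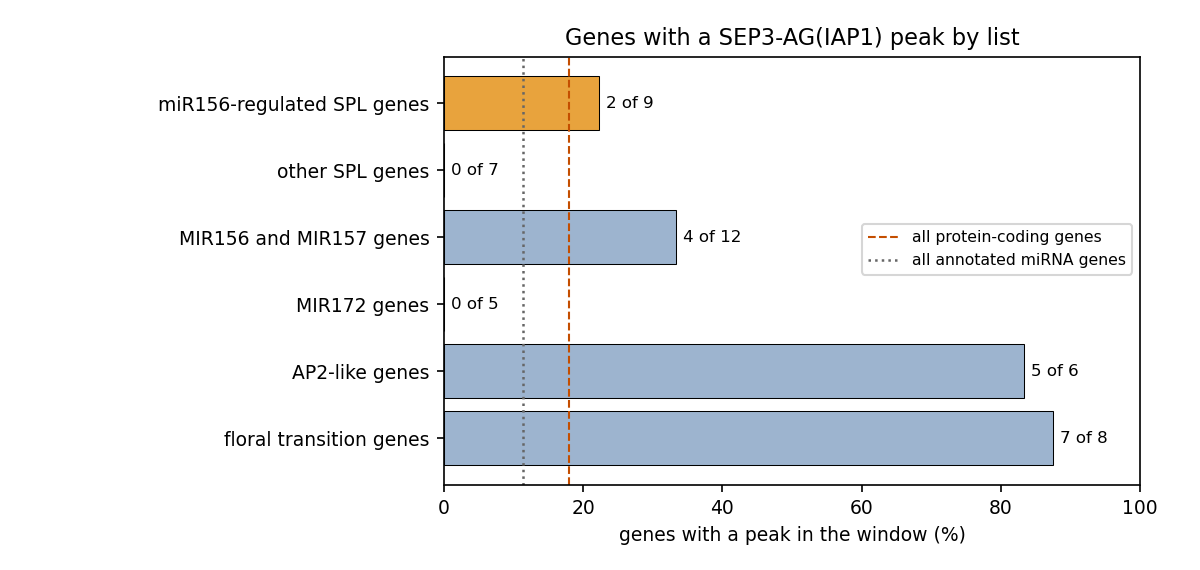
Share of genes with a peak in the window (x axis, %) for the SPL genes (orange) and the other lists of the pathway (blue), with the counts beside each bar. The dashed line is the 18.0% of all protein-coding genes and the dotted line the 11.3% of all annotated miRNA genes. The SPL bar, at 22.2%, stands close to the dashed line, and those of the AP2-like and the floral transition genes stand far above it, at 83.3% and 87.5%.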

How the data were processed

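SEP3-AG(IAP1) binding was measured by seq-DAP-seq in 3 replicates. After trimming with NGmerge, the authors aligned the reads to the nuclear chromosomes of TAIR10 (Bowtie2), discarded duplicates (SAMtools), called peaks for every replicate with input DNA as the control (MACS2) and took consensus peaks (MSPC), which were split where they had several maxima and fixed at 400 bp around each maximum. Tool versions: not given in the sources used here. Since the deposited regions carry positions and no values, the stringency of the joining decides which sites appear, and a site outside the list is not shown to be unbound.

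Sequences, genes and mature miRNAs were read from the RefSeq copy of TAIR10, and all peaks ended within its chromosomes. Of 48 genes listed, 47 were matched by symbol or synonym (not SPL16). SPL genes also had to carry the SQUAMOSA name. A palindromic 16 bp matrix was fitted in 30 rounds of expectation maximisation, starting from a CArG core with even flanks, without the chromosome of the scored peak. Percentiles of peaks are the share of peaks with a lower score. The miR156 site was sought without gaps, with at most 4 mismatches, in the transcript with the longest coding sequence. Proteins were translated from the annotated coding sequences and aligned globally. All 9 members are named, with the genes of the other lists that had a peak, up to 5 a list by highest score. AP1 and FD, and the genes of these lists without a peak, fall outside this rule. The members and lists were chosen with earlier results of these data known. The matrix fit and the search for miR156 sites were tested on simulated data. Python 3.11.15, numpy 2.4.6, scipy 1.17.1, biopython 1.88 and matplotlib 3.10.9 were used.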

Additional observations from a re-analysis of the deposited data

How the results depend on the processing

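With the window cut to 1000 bp upstream of the start up to the gene end, and with each peak given to the nearest start alone, 1 member was bound, SPL2, since the SPL11 peak lies 1974 bp upstream and nearer to the start of AT1G27350. The other windows kept the count at 2. From 5000 bp upstream to 3000 bp downstream, 1 of the other SPL genes, SPL14, gained a peak. By window, in the order 1000 and 3000 bp upstream to the gene end, the wide window and any base, the counts were 2, 4, 5 and 5 of 12 for MIR156 and MIR157, 2, 5, 5 and 5 of 6 for the AP2-like genes and 5, 7, 7 and 7 of 8 for the floral genes. By nearest start of a protein-coding gene they were 5 and 7 for the AP2-like and the floral genes, and 0 for the miRNA genes, which that rule leaves out. The share of protein-coding genes with a peak was 9.91% and 15.3% for windows from 1000 and 3000 bp upstream to the gene end, 27.6% for the wide window, 19.1% with any base of a peak in the window, 11.7% by nearest start and 15.97% over all annotated genes. The percentile of the SPL2 peak was 72.7 with all peaks in the matrix and 97.2 with the core of 10 bp alone, and that of the SPL11 peak was 75.2 with the core alone, so both ranks depend on whether the flanks are scored. At 1 site per 5000 bp (9.40 bits), 1 of the 2 SPL peaks, that of SPL2, held a site. With at most 1 mismatch, 2 peaks held a box rather than 1. The number of members with a miR156 site was 9 at up to 3 or 5 mismatches and 8 at up to 2, without SPL5.

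A stricter peak threshold and the removal of single replicates could not be tried, since the list gives joined positions only. No paired analysis was possible because there is 1 group. Depth per library and the strength of binding are not in the list, so weak binding at the members without a peak was not tested.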
